A study of Mus musculus with 14 samples.

Results

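Pecam1 and 8 other genes of cell-cell adhesion were followed in mouse embryonic stem cells (ESCs) labelled RCOR2 KO. The genes were chosen by name, with earlier results of these data known, as molecules that ESCs or epithelia carry at their surface. They are the immunoglobulin-type molecules Pecam1 and Icam1, the classical cadherins Cdh1, Cdh2 and Cdh3, the epithelial adhesion molecule Epcam, and the claudins Cldn4, Cldn6 and Cldn7. All 9 were found among the 25131 rows of the gene count table, and 8 of them passed the filter on low counts together with 10241 genes in all. RNA-seq was done on RCOR2 KO ESCs (2 libraries) and on WT ESCs (2 libraries). Binding of RCOR2, a corepressor of the CoREST family, was read from a peak list of chromatin immunoprecipitation (ChIP) with an HA antibody. The ChIP was done in ESCs labelled WT that expressed RCOR2-HA (2 samples, merged by the authors for peak calling). Cells of every group had the C57BL/6 background and grew on gelatin in serum medium with leukemia inhibitory factor and 2i, the kinase inhibitors PD0325901 and CHIR99021. Neither the deleted part of Rcor2, nor the number of KO clones, nor the origin of the replicates in separate cultures is given in the labels. The p-values therefore rest on a spread between libraries that may be technical.

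Cadherins join neighbouring cells through calcium-dependent contacts of their outer parts and hold on to the actin skeleton through catenins. E-cadherin (Cdh1) is the cadherin that keeps mouse ESC colonies compact. Claudins form the strands of tight junctions, which seal epithelia. Epcam is carried by epithelia and by undifferentiated ESCs, and binds claudins. Pecam1 (CD31) is best known from endothelial cells and platelets, but it also marks the surface of naive mouse ESCs and of the inner cell mass. Icam1 is the ligand of leukocyte integrins and is carried by mouse ESCs too.

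Depth was 2951498 and 1974865 counts in KO libraries, against 2368804 and 1286393 in WT libraries. The targeted gene Rcor2 was counted 157 and 103 times in KO libraries and 193 and 107 times in WT libraries. The log2 difference was −0.59 with an SE of 0.23 (edgeR, adjusted p = 0.0636), which is no check of the genotype while the deleted part is unknown. With library size in place of TMM scaling it was called, at −0.64. Across all genes, 10.4% of those tested were called higher and 9.3% lower in KO cells. Whole chromosomes were shifted. Chromosomes 6 and 3, which hold none of the 9 genes, had median log2 fold changes of 0.92 and 0.48. The 2 tested genes of chromosome Y had a median of −6.02. Genes of chromosome 11, which holds Pecam1 and Cldn7, had a median log2 fold change of −0.49, with 31.1% called lower and 1.95% higher. Those of chromosome 8, which holds Cdh1 and Cdh3, had one of 0.52, with 29.4% called higher and 1.77% lower. The medians were −0.05, −0.01 and −0.04 on chromosomes 5, 9 and 17, where Cldn4, Icam1, and Epcam with Cldn6 lie, and on chromosome 5 6.91% were called higher and 6.44% lower. For the 8 tested adhesion genes the median over the other tested genes within 2 Mb is given too, because the number of copies of a region and the level of its genes cannot be told apart here, nor can fewer cells of a kind and less RNA per cell in bulk samples. The ESC factors Sox2 (2510 and 1581 counts in KO libraries, 2352 and 1325 in WT libraries) and Tdgf1 (3599 and 2270 counts in KO, 2624 and 1378 in WT) were counted in every library, and Pou5f1 had 144 and 123 counts in KO libraries and 82 and 49 in WT libraries. All 10 ESC markers listed passed the filter on low counts.

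Of the 9 genes, Cldn4 and Cdh1 rose in KO cells and Pecam1 fell (edgeR quasi-likelihood test with Benjamini-Hochberg adjustment over all 10241 genes). Calls of either direction made up 19.7% of the tested genes. Icam1, Cdh3, Epcam, Cldn6 and Cldn7 did not pass the test, and Cdh2 was too low to be tested. The 8 tested members had a median log2 fold change of −0.40, against −0.02 over all tested genes. This median includes Cldn6 (−1.62), which passed the filter through the WT libraries alone. With chromosome medians removed, the median of the 8 was −0.29. Every one of the 9 had an RCOR2 peak within 10 kb, as had 88.7% of the tested genes and 68.3% of the protein-coding genes. With chromosome medians removed, 1 member was called higher (Cldn4) and 1 lower (Pecam1), where 6.28% of the tested genes were called higher, 6.67% lower and 12.9% either way. Centring on the tested genes within 2 Mb gave the same 2 members, with 7.06%, 7.62% and 14.7% of the tested genes. CPM below are counts scaled to 1e6 counts of tested genes after TMM scaling, and fold changes are KO over WT.

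**Figure D1:**
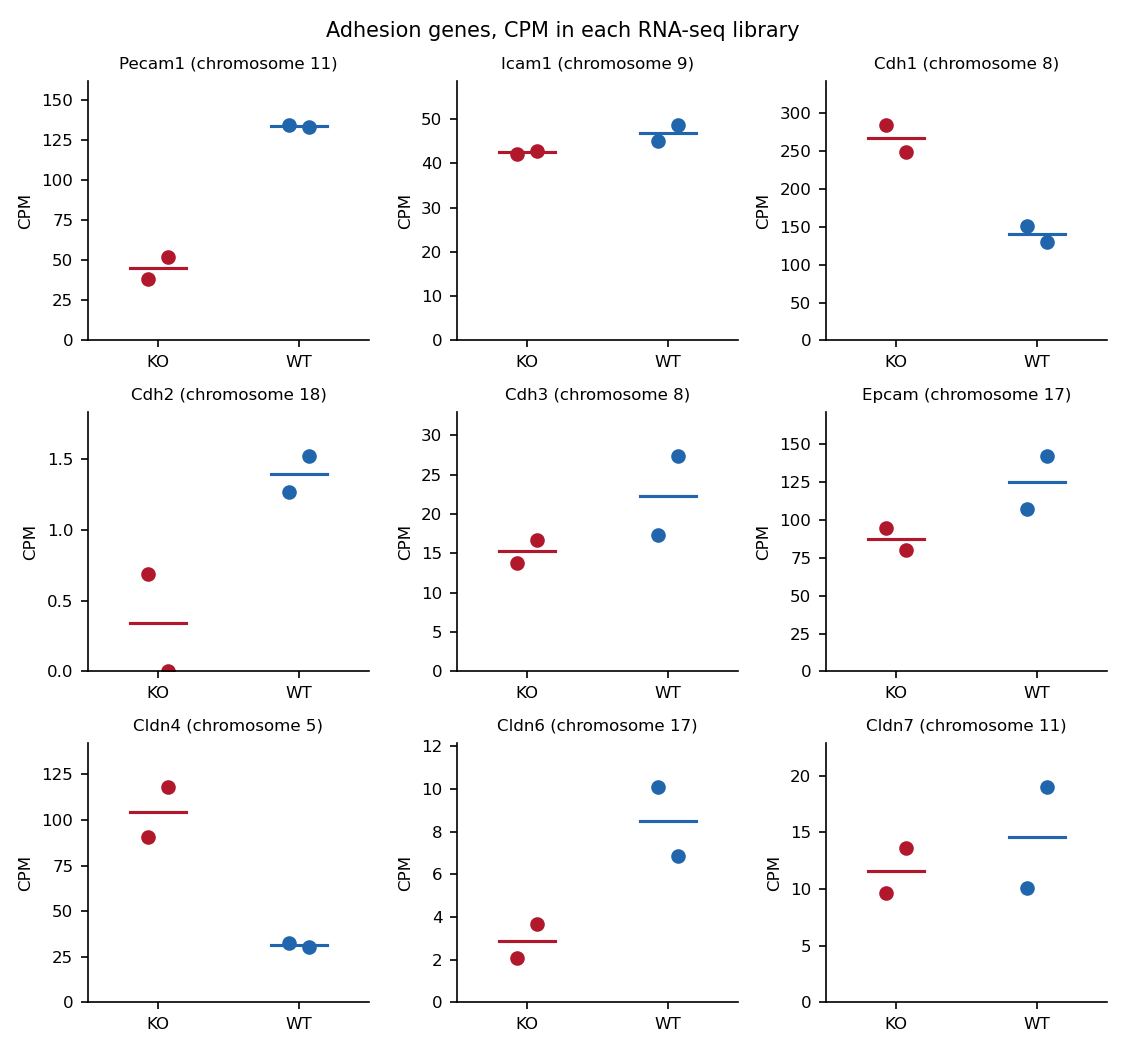
CPM of the 9 adhesion genes (vertical axes, each from 0) in the 2 KO and 2 WT libraries; points are libraries and bars are means. Pecam1 lies at 38.3 and 52.3 CPM in KO libraries, below 135 and 133 in WT libraries, and Cldn4 at 90.8 and 118 in KO libraries, above 32.5 and 30.5 in WT libraries.

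Pecam1 was counted 111 and 100 times in the KO libraries and 320 and 175 times in the WT libraries. That is 38.3 and 52.3 CPM in KO cells, against 135 and 133 CPM in WT cells. Both KO libraries lay far below both WT libraries, and the WT libraries nearly coincided. The mean was 45.3 ± 9.90 CPM in KO cells and 134 ± 1.10 CPM in WT cells (SD, n = 2 each), 0.335 times as high in the KO. On the log2 scale this was −1.58 (SE 0.22; edgeR, adjusted p = 1.43e-07). The call was kept in all 13 alternative fits, with values between −1.79 and −1.09.

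Pecam1 lies on chromosome 11 (GRCm38, 106654213 to 106715281), so part of its decrease coincides with that of the chromosome. Centred on the chromosome median it was at −1.09 (SE 0.22; edgeR, adjusted p = 0.000267). The 28 tested genes within 2 Mb had a median of −0.46, with 8 called lower and 0 higher. Pecam1 had a lower value than each of them. The lowest of these 28 was the adjoining tested gene Polg2, a subunit of the mitochondrial DNA polymerase, which lies 52923 bp above Pecam1. Polg2 had 21 and 19 counts in KO libraries and 59 and 32 in WT libraries, at −1.53 (SE 0.46; edgeR, adjusted p = 0.0116). Its call was lost without KO replicate 1 (−1.31), without WT replicate 1 (−1.50) and after centring on the chromosome (−1.05) or the genes within 2 Mb (−1.08). The neighbour on the other side, Tex2, was at −0.28 (SE 0.28). Over the whole of chromosome 11, 49 of the 869 other tested genes, or 5.64%, had a lower value than Pecam1.

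Endothelial and blood cells carry Pecam1 in the animal, and most of their defining genes were at or near 0 in these libraries. The endothelial genes Cdh5 (VE-cadherin), Emcn and Cd34 had 0 counts in all 4 libraries, as had the leukocyte gene Ptprc. A count of 0 allows up to 1.04 and 1.57 CPM in the KO libraries and 1.26 and 2.29 CPM in the WT libraries. Among the other untested endothelial markers, Kdr had 11 and 8 counts in KO libraries and 1 and 0 in WT libraries. Flt1 had 8 and 5 in KO libraries and 2 and 0 in WT libraries. Tie1, Sox18 and Esam had at most 1 count in a library. Of 12 endothelial markers 4 were tested. The receptor gene Tek fell (−1.84, SE 0.48), as did Egfl7 (−0.71, SE 0.26), while Vwf rose (2.31, SE 0.62). The call of Tek was lost without WT replicate 2 (−1.51), that of Vwf without KO replicate 2 (2.14) or after centring on chromosome 6 (1.40) or on the genes within 2 Mb (1.38), and that of Egfl7 without any 1 library (−0.88 to −0.52) or after centring on its chromosome (−0.64). The summed level of the 12 genes was 73.9 and 93.1 CPM in KO libraries and 106 and 115 in WT libraries. Of 10 blood cell markers 1 was tested, the lysosomal protein gene Cd68 on chromosome 11, which was at −1.22 (SE 0.44), called lower, and not called after centring on the chromosome (−0.74) or on the genes within 2 Mb (−0.69). It was not called without KO replicate 1 (−1.01), KO replicate 2 (−1.42) or WT replicate 2 (−0.90) either. The blood list summed to 11.0 and 13.1 CPM in KO libraries and 21.9 and 34.3 in WT libraries, with 5 of its 10 genes at 0 throughout. The 10 fibroblast markers summed to 19.3 and 15.2 CPM in KO libraries and 20.2 and 32.0 in WT libraries. Of these the collagen gene Col1a1 was tested, at −1.02 (SE 0.64), and not called. It was at −2.77 without KO replicate 1 and −0.34 without KO replicate 2. The part of such cells in the decrease of Pecam1 was not tested.

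The genes whose log2 CPM followed that of Pecam1 most closely over the 4 libraries, by Euclidean distance after centring each gene on its mean, were Flcn (distance 0.13), Camk2b (0.16), Aplp1 (0.21), Txnip (0.22) and Rrm2b (0.23), out of 5759 genes of like level. They are the folliculin gene, a kinase, a relative of the amyloid precursor, a thioredoxin-binding protein and a ribonucleotide reductase subunit. Flcn and Camk2b lie on chromosome 11 as well. Their log2 fold changes lay between −1.76 and −1.43, a direction that the choice by likeness to Pecam1 fixes. Rrm2b lost its call without KO replicate 1 (−1.26).

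Icam1 was not called. It had 122 and 82 counts in KO libraries and 107 and 64 in WT libraries, or 42.1 and 42.9 CPM against 45.1 and 48.8 CPM. The 4 libraries were close to each other, at 42.5 ± 0.561 CPM in KO cells and 46.9 ± 2.59 CPM in WT cells (SD, n = 2 each). On the log2 scale KO cells differed from WT cells by −0.14 (SE 0.28; edgeR, adjusted p = 0.793), with a 95% interval of −0.69 to 0.41, and by −0.09 without WT replicate 2. The 47 tested genes within 2 Mb on chromosome 9 had a median of −0.13.

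Cdh1 was counted 825 and 475 times in KO libraries and 358 and 170 times in WT libraries. Its level was 285 and 249 CPM in KO cells, against 151 and 130 CPM in WT cells. Both KO libraries were above both WT libraries. The means of 267 ± 25.6 CPM in KO cells and 140 ± 15.1 CPM in WT cells (SD, n = 2 each) differed 1.89-fold, or by 0.92 on the log2 scale (SE 0.17; edgeR, adjusted p = 3.63e-05). Cdh1 lies on chromosome 8 (GRCm38, 106603350 to 106670247), where 29.4% of the tested genes were called higher. Centred on that chromosome it was at 0.41 (SE 0.17; edgeR, adjusted p = 0.107), and centred on the genes within 2 Mb at 0.42 (SE 0.17; edgeR, adjusted p = 0.0855), no longer called. The 50 tested genes within 2 Mb had a median of 0.50. Of the 564 other tested genes of chromosome 8, 131 or 23.2% had a higher value than Cdh1.

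Cdh3, the P-cadherin gene, ends 46439 bp before Cdh1 on the same chromosome and was not called. It had 40 and 32 counts in KO libraries and 41 and 36 in WT libraries. These are 13.8 and 16.7 CPM in KO cells, against 17.3 and 27.4 CPM in WT cells. The KO libraries were below the WT libraries by little, and the WT libraries differed most from each other. KO cells were at −0.53 on the log2 scale (SE 0.42; edgeR, adjusted p = 0.429; 95% interval −1.37 to 0.32), and it ranged from −0.84 without WT replicate 1 to −0.19 without WT replicate 2. Centred on chromosome 8 it was at −1.04 (SE 0.42; edgeR, adjusted p = 0.0952). Of its 50 tested neighbours within 2 Mb, whose median was 0.51, 3 had a lower value.

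The count of Cdh1 over that of Cdh3 is free of the scaling between libraries. It was 20.6 and 14.8 in the KO libraries and 8.73 and 4.72 in the WT libraries, so that both KO ratios exceeded both WT ratios. An exact permutation test of 2 against 2 libraries cannot go below p = 0.333, the value found (two-sided). Cdh2, the N-cadherin gene on chromosome 18, which neural and mesodermal cells take up in place of Cdh1, had 2 and 0 counts in KO libraries and 3 and 2 in WT libraries. Its ratio of summed counts per depth was 0.307 with an exact 95% interval of 0.0292 to 1.87, so a difference was not detectable at this depth.

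**Figure D2:**
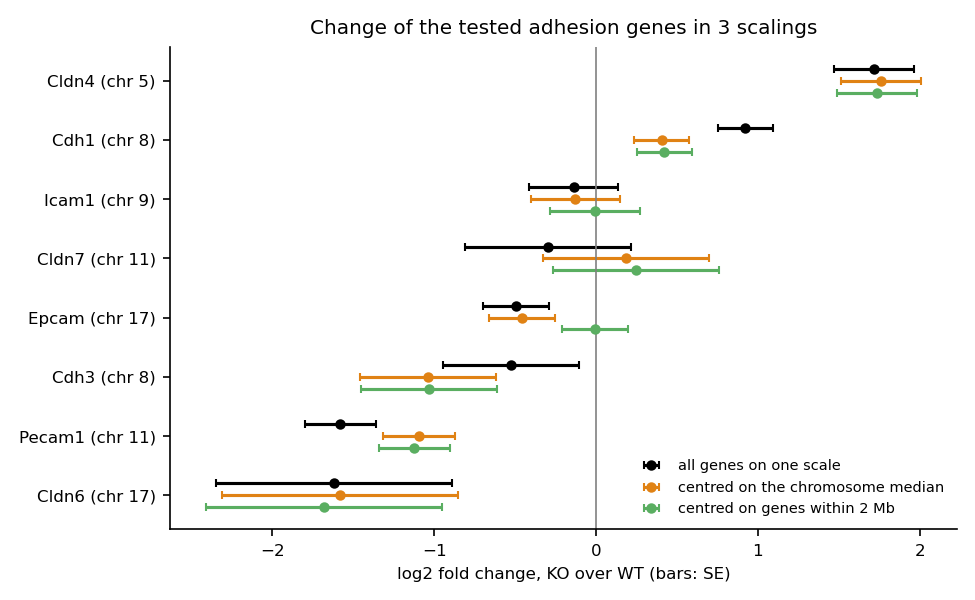
Log2 fold change, KO over WT, of the 8 tested adhesion genes (horizontal axis; bars are SE), with all genes on one scale, centred on the median of the gene's chromosome, and centred on the tested genes within 2 Mb. Cldn4 (1.72) and Pecam1 (−1.58) stay away from 0 in each, while Cdh1 goes from 0.92 to 0.41 and 0.42.

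Epcam had 275 and 153 counts in KO libraries and 255 and 187 in WT libraries. Its level was 94.9 and 80.0 CPM in KO cells, against 107 and 142 CPM in WT cells. The KO libraries were below the WT libraries, with the widest gap between the WT libraries themselves. At −0.50 on the log2 scale (SE 0.20; edgeR, adjusted p = 0.0781; 95% interval −0.90 to −0.09) it was not called. It was called without WT replicate 1 (−0.68) and stood at −0.29 without WT replicate 2. The 11 tested genes within 2 Mb on chromosome 17 had a median of −0.49, and centred on them Epcam was at −0.00 (SE 0.20). The calmodulin gene Calm2, on its lower-coordinate side, was called lower (−0.40, SE 0.14). Calm2 lost that call without KO replicate 1 (−0.42), KO replicate 2 (−0.36) or WT replicate 2 (−0.28), and when centred on chromosome 17 (−0.36) or on the genes within 2 Mb (0.10).

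Cldn4 rose more than any other of the tested adhesion genes in this set of 9. It was counted 263 and 226 times in KO libraries and 77 and 40 times in WT libraries. Its level was 90.8 and 118 CPM in KO cells, against 32.5 and 30.5 CPM in WT cells. Both KO libraries were well above the WT libraries, which nearly coincided. The means of 105 ± 19.4 CPM in KO cells and 31.5 ± 1.40 CPM in WT cells (SD, n = 2 each) differed 3.29-fold, or by 1.72 on the log2 scale (SE 0.25; edgeR, adjusted p = 2.63e-07). The call was kept in all 13 alternative fits, with values between 1.54 and 1.90. Chromosome 5 (Cldn4 at GRCm38 134945123 to 134946934) was not shifted, and Cldn4 had a higher value than each of its 36 tested neighbours within 2 Mb, whose median was −0.02. The gene beside it, Mettl27, which ends 2486 bp away, was at 0.30 (SE 0.32; edgeR, adjusted p = 0.594). Of the 636 other tested genes of chromosome 5, 7 or 1.10% had a higher value.

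Neither of the other 2 claudins was called. Cldn7 on chromosome 11 had 28 and 26 counts in KO libraries and 24 and 25 in WT libraries, or 9.66 and 13.6 CPM in KO cells, against 10.1 and 19.0 CPM in WT cells. The groups overlapped. Its log2 value was −0.30 (SE 0.51; edgeR, adjusted p = 0.760; 95% interval −1.32 to 0.73), was −0.71 without WT replicate 1, and its sign turned after centring on the chromosome (0.19) or without WT replicate 2 (0.18). The count of Cldn4 over that of Cldn7 was 9.39 and 8.69 in the KO libraries and 3.21 and 1.60 in the WT libraries (exact permutation test, two-sided p = 0.333, the smallest that 2 against 2 allows).

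Cldn6, a claudin of early embryonic epithelia, was low throughout, with 6 and 7 counts in KO libraries and 24 and 9 in WT libraries. These are 2.07 and 3.66 CPM in KO cells, against 10.1 and 6.86 CPM in WT cells. It passed the filter through the WT libraries alone, so its estimate could hardly fall on the other side of 0. Its log2 value of −1.62 (SE 0.73) was not called (edgeR, adjusted p = 0.114; 95% interval −3.08 to −0.16). Its 66 tested neighbours within 2 Mb on chromosome 17 had a median of 0.06. Among them, Hcfc1r1 was at 0.81 (SE 0.28) and was not called without KO replicate 1 (0.93), KO replicate 2 (0.70) or WT replicate 2 (0.66), or when centred on the genes within 2 Mb (0.75). Paqr4 was 10.7 times as high in KO cells by summed counts (exact 95% interval 3.43 to 54.1), and was not called without KO replicate 2 or WT replicate 1. It passed the filter through the KO libraries alone, which fixed its direction. Of the 20 further claudins listed 19 were in the table and 2 were tested, with no call (0 at edgeR's adjusted threshold). The more highly counted of them was Cldn12, at −1.18 (SE 0.68), which moved from −2.52 without KO replicate 2 to −0.39 without KO replicate 1.

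**Figure D3:**
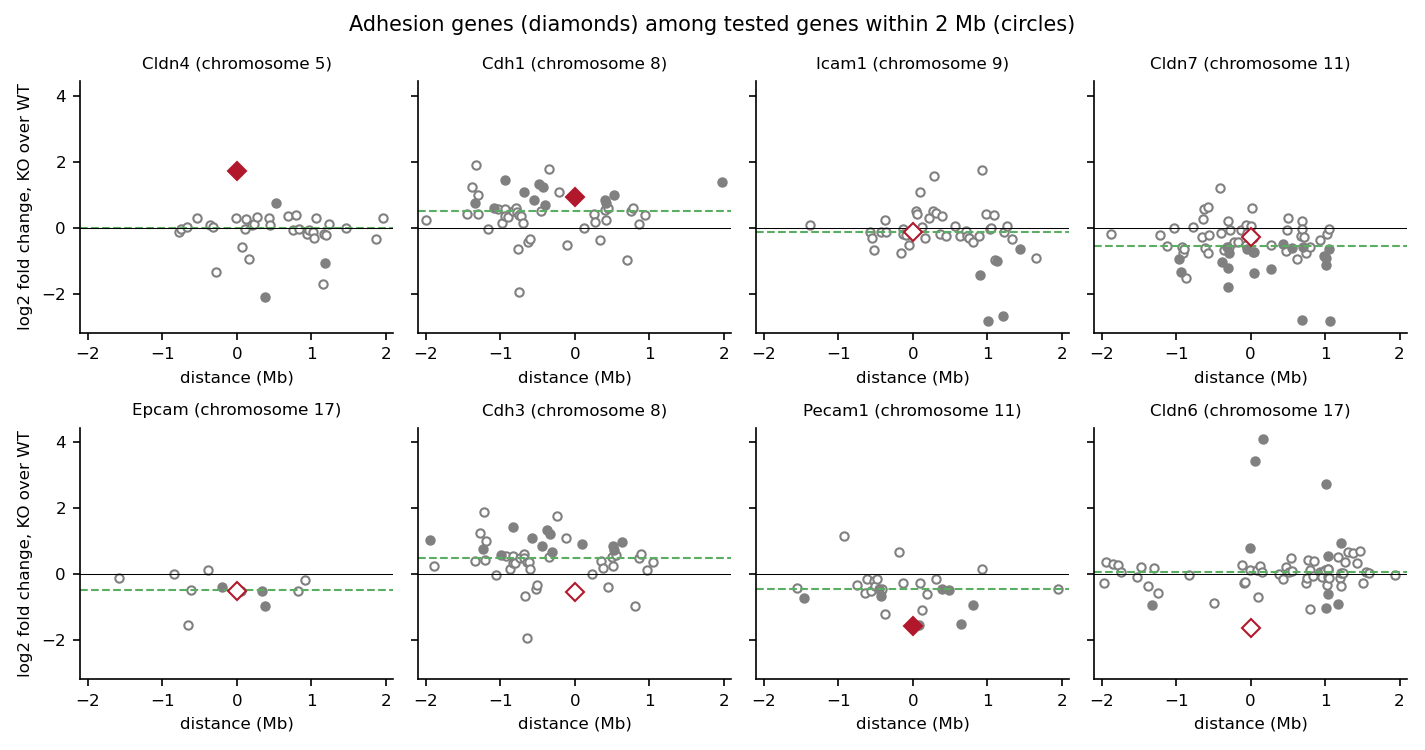
Log2 fold change, KO over WT (vertical axis), of the 8 tested adhesion genes (diamonds) and of the tested genes within 2 Mb (circles) by distance in Mb; filled symbols are called by edgeR and dashed lines are the neighbours' medians. Cldn4 lies above all of its 36 neighbours and Pecam1 below all of its 28. Cldn6 passed the filter through WT libraries alone, which largely fixed its direction.

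As shares of the summed counts of the 9 genes, Cdh1 made up 49.3% and 43.1% in KO libraries and 29.6% and 24.0% in WT libraries. Cldn4 made up 15.7% and 20.5% in KO libraries and 6.37% and 5.65% in WT libraries. Pecam1 made up 6.64% and 9.08% in KO libraries and 26.5% and 24.7% in WT libraries. The sum of the 9 genes was 577 and 576 CPM in KO cells and 510 and 539 CPM in WT cells. Both KO totals thus lay above both WT totals. The shares of the 3 called genes follow the direction of their calls and add no separate result. That of Cdh1 is not centred on chromosome 8. These are shares of reads and not of molecules, since gene length was not taken into account.

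RCOR2 peaks lay near all of these genes, 55 peaks in all, and none was counted for 2 of them. Fold enrichment and −log10 q of a peak are the authors' values from the peak caller. Cldn4 had the densest set and the strongest single peak. In the 21812 bases from 10 kb before to 10 kb after this short gene there were 10 peaks, 4.58 for each 10 kb, and 95.9% of the tested genes had fewer peaks in their own windows. One of the 10 peaks covered the start of the gene (chr5:134946657-134947286, 5.07-fold, −log10 q of 6.64), with its summit 127 bp before the start. A second lay 723 bp before the start (chr5:134947397-134947762, 6.21-fold, 9.85). The strongest, at chr5:134939304-134940421, was 8.58-fold enriched with a −log10 q of 19.7. Its summit was 7021 bp beyond the start, past the end of Cldn4 and inside the neighbouring Mettl27. Mettl27 spans 134932304 to 134942637, so several of the 10 peaks lie in that gene.

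Icam1 was the other gene whose start, as given by RefSeq, was covered by an RCOR2 peak. That peak, chr9:21014689-21016163, was 1475 bp wide, 6.83-fold enriched and had a −log10 q of 12.9. It thus ranked above the peak over the start of Cldn4 in the list, while Icam1 was not called in KO cells. Of the 5 genes with a start in the RefSeq promoter table (Icam1, Epcam, Cldn4, Cldn6 and Cldn7) these were the 2 with a covered start. Among genes with such an entry, 16.9% had a peak over a start, and among the tested ones 36.0%. Within 10 kb of a start all 5 had a peak, as had 51.6% of the genes with an entry. That share includes genes that were not tested, and the share among tested genes was not computed.

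The sequences before the starts of Cldn4 and Icam1 are shown because RCOR2 peaks cover both in full, 250 of 250 bases, and the genes differ in their response. They are from RefSeq (GRCm38.p6), 5′ to 3′ on the strand of the gene, ending at the base before the start. Cldn4 is at chr5:134946935-134947184 on the minus strand and Icam1 at chr9:21015690-21015939 on the plus strand. Capitals mark TGACTCA (the AP-1 motif) in Cldn4 and TTCNNNGAA (the STAT motif) in Icam1.
Cldn4: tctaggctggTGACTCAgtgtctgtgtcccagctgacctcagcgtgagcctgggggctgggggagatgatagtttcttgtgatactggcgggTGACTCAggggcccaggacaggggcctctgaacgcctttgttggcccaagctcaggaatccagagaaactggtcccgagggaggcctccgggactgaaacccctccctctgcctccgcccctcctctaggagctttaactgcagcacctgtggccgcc
Icam1: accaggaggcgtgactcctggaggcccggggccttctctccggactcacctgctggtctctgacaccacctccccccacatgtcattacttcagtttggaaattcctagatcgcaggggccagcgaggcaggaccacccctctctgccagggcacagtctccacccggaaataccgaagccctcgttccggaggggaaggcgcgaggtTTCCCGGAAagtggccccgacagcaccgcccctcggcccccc

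Both windows are rich in G and C, 62.0% in Cldn4 and 65.2% in Icam1, against a median of 52.4% over all 32851 promoters of the table. Cldn4 held TGACTCA at 2 places, from −240 to −234 and from −158 to −152, counted from the start. That motif was found on either strand in 4.46% of all promoters, and in none of the windows of Icam1, Epcam, Cldn6 and Cldn7. Icam1 held TTCNNNGAA from −42 to −34, and the window of the second start of Cldn7 also held it, as did 7.02% of all promoters. CACCTG, the E-box bound by SNAI and ZEB repressors, was in the windows of all 5 genes (for Cldn7, in that of the second of its 2 starts) and in 17.2% of all promoters. The GC box GGGCGG was in windows of all 5 genes and in 32.7% of all promoters. Motifs of TEAD, GRHL and the TATA box were searched too. Of these only that of TEAD matched, in the window of the first start of Cldn7. The motifs overlap none of the others in these windows. They were searched with the sequences and results known, and a match is a description of letters only.

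Cdh1 had the most peaks, 13 in a window of 86898 bases, and 98.3% of tested genes had fewer. One of them, chr8:106603238-106604506, spanned the lower end of the gene interval (1269 bp wide, 4.11-fold, −log10 q of 6.15). The strongest lay 15886 bp inside the gene (chr8:106618780-106619953, 7.58-fold, 15.4). Cdh3 had 7 peaks, the strongest 17039 bp inside it (chr8:106527700-106528099, 8.04-fold, 16.4), and a weak one 323 bp inside its lower end (4.15-fold, 3.79). The 2 cadherin genes thus had strongest peaks of like −log10 q. The 3 peaks of Cdh2, which was barely counted, all clustered at the upper end of its 220370-base interval, between 6.81-fold and 5.75-fold enriched. One of them spanned that end.

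Pecam1 had 7 peaks. The 5 inside the gene were weak, with a −log10 q of 2.05 to 3.79. The strongest, chr11:106724383-106725233 (7.81-fold, −log10 q of 15.4), lay 9335 bp above the upper end of the gene interval, next to another at 7741 bp (5.30-fold, 7.42). No peak covered an end of the Pecam1 interval. Its strongest peak was stronger than that of 83.1% of the tested genes, the same as for Icam1 and Cdh1. The strongest peak in the Icam1 window lay 3322 bp past Icam1, over the lower end of the neighbouring gene Icam5.

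Epcam had 5 peaks. Of these, 3 followed its start at 71, 527 and 1090 bp and were weak (3.46-fold to 4.38-fold), and the strongest lay 1335 bp past the far end (chr17:87652360-87652578, 5.73-fold, −log10 q of 8.62). Cldn6 and Cldn7 had 2 peaks each, as few as the median tested gene. The stronger peak of Cldn6 (5.98-fold, 9.00) lay 2973 bp beyond the gene, and the other lay inside the neighbouring Hcfc1r1. Both peaks of Cldn7 were weak (−log10 q of 3.79 and 2.62). One of these reached into the bases before the second start of Cldn7, 101 of 250. At a −log10 q of at least 5 within 10 kb, 8 of the 9 genes had a peak (all but Cldn7), against 70.2% of tested genes.

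**Figure D4:**
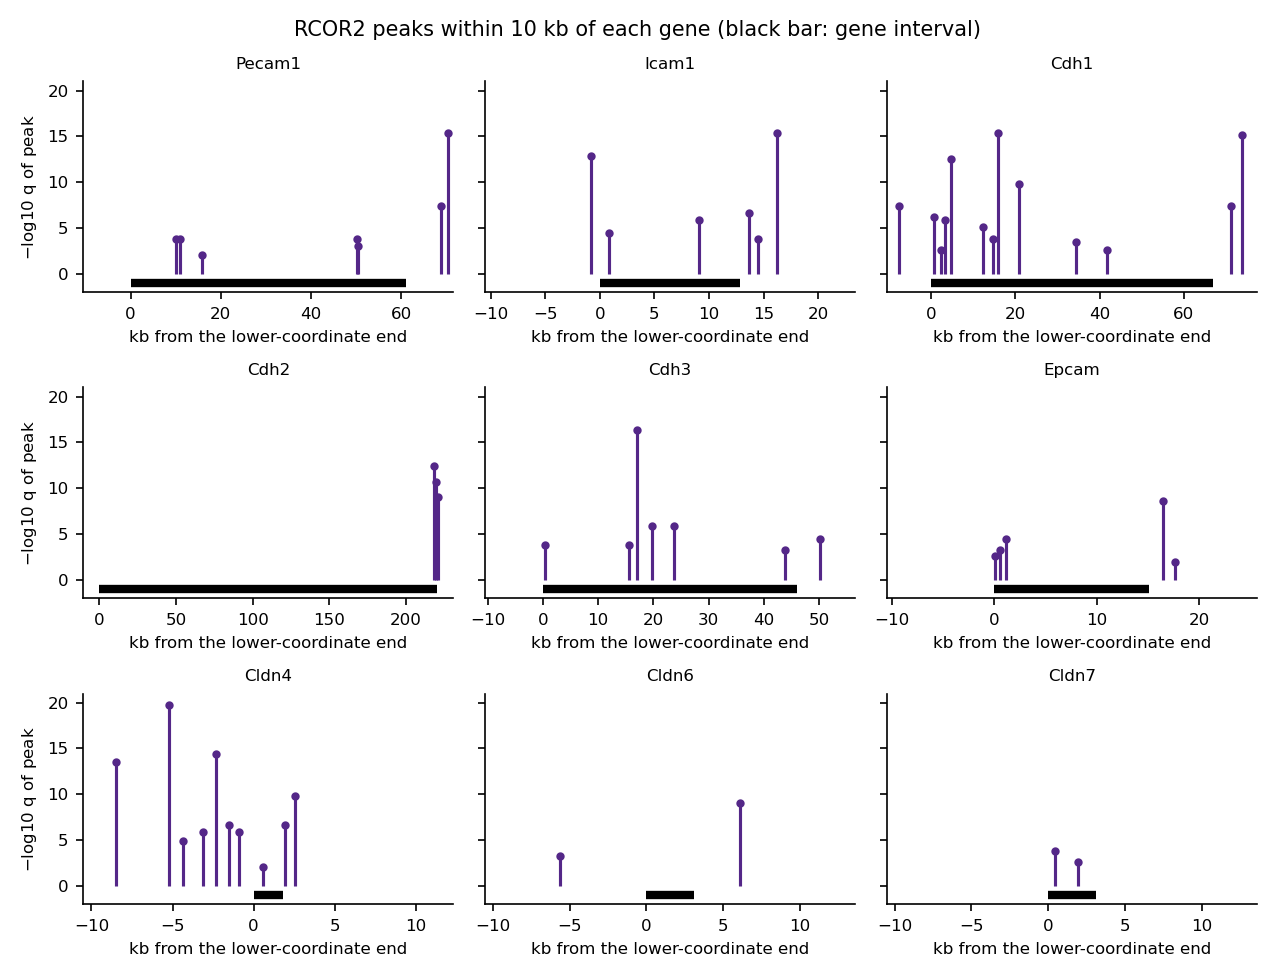
RCOR2 peaks (stems; height is the authors' −log10 q) within 10 kb of each of the 9 adhesion genes, by distance in kb of the summit from the lower-coordinate end of the gene interval (black bar). Cldn4 has 10 peaks on a short interval, up to 19.7, and Cldn7 has 2, up to 3.79.

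The share of genes with a nearby peak was close to the same among called and other genes. Of the tested genes higher in KO cells 89.7% had a peak within 10 kb, of those lower 90.0%, and of those not called 88.5%. Among the adhesion genes the called ones had 10 (Cldn4), 13 (Cdh1) and 7 (Pecam1) peaks. Those not called had 6 (Icam1), 7 (Cdh3), 5 (Epcam), 2 (Cldn6) and 2 (Cldn7). The windows of these genes differ in length. Those of Icam1, Cldn4, Cldn6 and Cldn7 also reach other protein-coding genes, and peaks there are counted too. For each 10 kb of window the called genes had 4.58 (Cldn4), 1.496 (Cdh1) and 0.8635 (Pecam1) peaks. The genes not called had 1.8251 (Icam1), 1.0596 (Cdh3), 1.4225 (Epcam), 0.8658 (Cldn6) and 0.8655 (Cldn7). By this measure Pecam1 was the lowest of the 8 tested members, and Cdh1 lay below Icam1. The peak list has no replicate values, so the strength of peaks was not tested between genes.

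Calls among the partners of these molecules went in both directions, and each count is to be read beside the 19.7% of all tested genes that were called. Of 13 proteins of the adherens junction plaque 12 were tested, 1 rose and 1 fell, and their median was −0.09. Jup (plakoglobin), which links cadherins to the skeleton, had 204 and 192 counts in KO libraries and 127 and 64 in WT libraries, at 0.72 (SE 0.24). It was at 1.21 after centring on chromosome 11, and was not called without KO replicate 2 (0.47), WT replicate 1 (0.81) or WT replicate 2 (0.66). Afdn (afadin), which links nectins to actin, had 301 and 236 counts in KO libraries and 513 and 210 in WT libraries, at −0.74 (SE 0.18), and was not called without KO replicate 1 (−0.62) or WT replicate 1 (−0.48), or when centred on the genes within 2 Mb (−0.27). All 5 nectins and their relatives were tested, and Nectin3 alone fell (−1.03, SE 0.31). It was not called without KO replicate 1 (−0.96) or WT replicate 1 (−0.77). Of 22 further cadherins and protocadherins 3 were tested and 0 were called by edgeR. The most highly counted of these, Fat1, was at −0.02 (SE 0.26), and at −0.49 and 0.60 without WT replicate 1 and 2. Of 8 desmosome proteins 5 were tested and 2 fell, the desmosomal cadherin Dsg2 (−1.02, SE 0.26) and the plaque protein Pkp2 (−1.15, SE 0.42). Pkp2 lost its call without any 1 of the 4 libraries (−1.25 to −1.06), when centred on its chromosome (−0.998) and when centred on the genes within 2 Mb (−0.80). Dsg2 was not called in the last of these either (−0.34).

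Of 21 other proteins of tight junctions 17 were tested, 2 rose and 2 fell, with a median of 0.27. The angiomotin relatives Amotl1 (−1.26, SE 0.27) and Amotl2 (0.89, SE 0.25) went opposite ways. Amotl1 had 93 and 51 counts in KO libraries and 164 and 96 in WT libraries, and Amotl2 had 220 and 155 in KO libraries and 88 and 64 in WT libraries. F11r, the junctional adhesion molecule JAM-A, rose (0.65, SE 0.22), and the scaffold protein Mpdz fell (−1.60, SE 0.57). The call of Amotl2 was lost without KO replicate 2 (0.86) or WT replicate 1 (0.70), and that of F11r without KO replicate 1 (0.40) or WT replicate 2 (0.55). Mpdz was not called without KO replicate 1 (−1.41), KO replicate 2 (−1.76) or WT replicate 2 (−1.15), or when centred on its chromosome (−1.60).

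Of 22 other immunoglobulin-type and related adhesion molecules 9 were tested, 2 rose and 0 fell, with a median of −0.26. Of those 2, 1 passed the filter through the KO libraries alone. Bcam, a laminin receptor, had 135 and 98 counts in KO libraries and 35 and 11 in WT libraries, at 2.01 (SE 0.35; edgeR, adjusted p = 1.67e-05), kept in all 13 alternative fits.

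Of 25 integrins and integrin partners 11 were tested, 1 rose and 3 fell, with a median of −0.06. The talin gene Tln1 rose (0.67, SE 0.18) and its relative Tln2 fell (−0.78, SE 0.26). Itgb7 and Itgb3, the other 2 called lower, passed the filter through the WT libraries alone, so their direction was fixed. By summed counts Itgb7 in KO cells was 0.102 times its WT level (exact 95% interval 0.0262 to 0.290) and Itgb3 0.0807 times (0.00910 to 0.334). Tln1 was not called without KO replicate 1 (0.56). Tln2 was not called without KO replicate 1 (−0.95), KO replicate 2 (−0.62) or WT replicate 1 (−0.67). Itgb7 was not called without any 1 of the 4 libraries (−3.45 to −2.89), nor Itgb3 without KO replicate 1 (−2.24) or KO replicate 2 (−6.52), or when centred on chromosome 11 (−2.97) or on the genes within 2 Mb (−3.04).

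Of 17 factors and products of the epithelial-mesenchymal transition 3 were tested. The fibronectin gene Fn1 fell (−0.80, SE 0.16; edgeR, adjusted p = 9.82e-05), with 578 and 435 counts in KO libraries and 844 and 510 in WT libraries. It was not called when centred on the genes within 2 Mb (−0.36). Of 16 other surface markers of ESCs 11 were tested, 3 rose and 2 fell, with a median of −0.03. The tetraspanin gene Cd9 had 4694 and 3043 counts in KO libraries and 994 and 727 in WT libraries, at 1.73 (SE 0.15; edgeR, adjusted p = 4.87e-14). The sialomucin gene Podxl was at 2.08 (SE 0.39), and Bst2 at 1.31 (SE 0.24). Cd9 and Podxl lie on chromosome 6 (median 0.92), and Bst2 on chromosome 8, and centred on these they were at 0.81, 1.17 and 0.79, all still called. The receptor gene Kit fell (−0.91, SE 0.25) and was not called without KO replicate 2 (−0.86) or WT replicate 1 (−0.70).

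With DESeq2 in place of edgeR, 16 of the named calls were lost. They were those of Jup, Nectin3, Amotl2, F11r, Mpdz, Pkp2, Itgb7, Itgb3, Tln2, Kit, Vwf, Egfl7, Cd68, Polg2, Hcfc1r1 and Paqr4, with DESeq2 adjusted p between 0.0504 and 0.227. Those of Pecam1, Cldn4 and Cdh1 were kept.

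**Figure D5:**
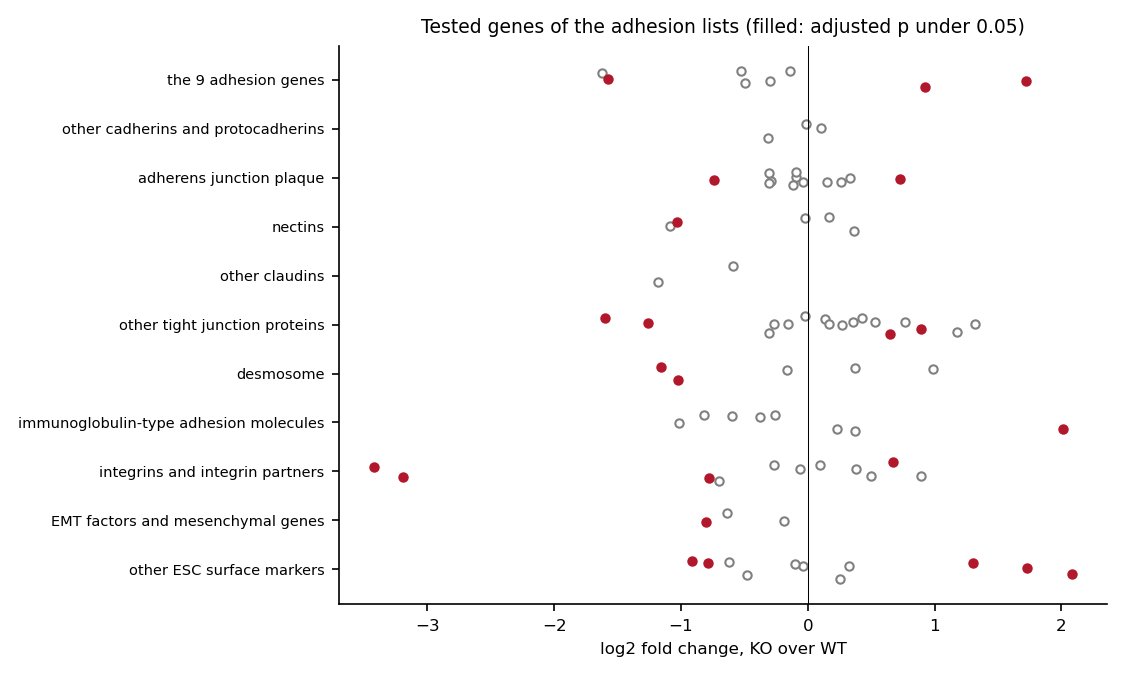
Log2 fold change, KO over WT (horizontal axis), of the tested genes of each adhesion list (rows; filled points are called by edgeR); 1 called gene beyond the axis is left out. Calls fall on both sides of 0, from Itgb3 at −3.42 to Podxl at 2.08. Itgb3 and Itgb7 passed the filter through the WT libraries alone, which fixed their direction.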

How the data were processed

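For RNA-seq the authors deposited raw counts by gene symbol, as a table whose 4 columns were identical to the counts of the single libraries. Per the submitters' processing notes, Trimmomatic 0.36, STAR 2.5.2b, SAMtools 1.8, Subread and featureCounts were used for the series, on GRCm38. Whether counting used strand or collapsed duplicates is not stated in the labels. The RCOR2 peak list holds a fold enrichment (a ratio) and a −log10 q per peak, deposited by the authors, and the peak names show that libraries were merged. The submitters' processing notes name Bowtie2 2.3.4.1 and MACS2 2.1.1.20160309. The ChIP replicates differed in read layout and in the cells used as control, per the labels.

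Counts were filtered with filterByExpr and tested with edgeR 4.0.16 in R 4.3.3 (TMM scaling, quasi-likelihood test, KO over WT, two-sided, adjusted p under 0.05). The SE is the log2 fold change over the square root of F, and 95% intervals of fold changes from the t distribution of the fit. Alternatives used DESeq2 1.42.0 and limma 3.58.1 (voom). Intervals of count ratios and floors cover counting error only. The fit was tested on simulated data. Sampling noise alone does not cover the spread within groups (chi-square per degree of freedom 4.22 in KO, 4.78 in WT). Of 25131 rows, 25027 were placed by the RefSeq table of GRCm38.p6, which gives no strand, and 26 carry a date in place of a symbol. A gene window is its RefSeq interval with 10 kb on each side, and a peak counts when it overlaps the window. Genes within 2 Mb were taken by their midpoints. Starts and sequences are from the RefSeq promoter table.

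The members, gene lists and tests were chosen with earlier results of these data known. All 9 members are named, and from each other list at most the 4 called genes with the lowest adjusted p, or else the most highly counted tested gene, with the nearest tested gene on each side of a member; results of some genes under this rule are not reported here. Sox2, Tdgf1, Pou5f1, Cdh5, Emcn, Cd34, Kdr, Flt1, Tie1, Sox18, Esam and Ptprc were named after their counts were seen. The pull-downs at Nanog, the input, the control and the ATAC-seq samples were not used here.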

Additional observations from a re-analysis of the deposited data

How the results depend on the processing

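Over 13 alternative fits, the direction and call of Pecam1, Cldn4, Icam1 and Cdh3 did not change. Those of Cldn6 did not change either, but it passed the filter through the WT libraries alone, which largely fixed its direction. Cdh1 lost its call in both centred fits, so that 1 member was called higher with the chromosome median removed and 1 with the genes within 2 Mb. Leaving out each library in turn, 1 to 2 members were called lower (Epcam joined without WT replicate 1). All genes called higher numbered 1062, with 569 to 920 when 1 library was left out, 643 with chromosomes centred and 589 by DESeq2. Those called lower numbered 952, with 440 to 779 when 1 library was left out and 417 by DESeq2. For Cldn7 the sign turned with chromosomes centred (0.19), with genes within 2 Mb (0.25) and without WT replicate 2 (0.18), and it was at −0.71 without WT replicate 1. The sign of Fat1 turned with no filter (0.012), with scaling off chromosomes 3, 6, 8 and 11 (0.025), with the replicate block (0.049), without WT replicate 2 (0.60, against −0.49 without WT replicate 1) and with limma-voom (0.17). Calm2 turned with genes within 2 Mb (0.10), and so did Nanog (−0.60; −0.44 with chromosomes centred). The cause was not tested, beyond the shift of the chromosome or of the neighbours that centring removes. Same-numbered libraries did not deviate together (correlation −0.05), so the numbers were not taken as pairs. With the replicate block, 969 genes were called higher and 853 lower, with the same 2 members higher and 1 lower. All 5 members with a known start had a peak within 10 kb of it, as had 51.6% of all genes with a promoter entry, untested ones included. Leaving out a library leaves 1 sample in its group, which is assumed to vary like the other group. Depth limits Cdh2, Cldn6 and Cldn7, with at most 28 counts in a library.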

Other observations

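The ESC factors Klf4 (1.30, SE 0.16) and Tfcp2l1 (0.87, SE 0.17) also rose in KO cells, and Dppa5a was at −0.47 (SE 0.15), called lower. Tfcp2l1 was at 0.57 without WT replicate 1, still called. Dppa5a was not called without KO replicate 1 (−0.35), KO replicate 2 (−0.58) or WT replicate 1 (−0.31). Nanog, on chromosome 6, was at 0.48 (SE 0.15), called higher, and not called without KO replicate 1 (0.46) or KO replicate 2 (0.52). Its direction turned when centred on the chromosome, where it was called lower at −0.44 (edgeR, adjusted p = 0.0362), and when centred on the genes within 2 Mb, where it was called lower at −0.60 (edgeR, adjusted p = 0.00263).

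The genes closest to Cldn7 over the 4 libraries, out of 6789 of like level, were Mast3 (Euclidean distance 0.05 on the log2 CPM scale), Rchy1 (0.07), Zswim4 (0.07), Ints6l (0.12) and Exoc1 (0.12), on chromosomes 8, 5, 8, X and 5. The gene next to Cldn7, Elp5, which lies 338 bp away, was at 0.05 (SE 0.24) while the 66 tested genes within 2 Mb had a median of −0.55, with 21 called lower and 0 higher.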
